A study of Homo sapiens with 3 samples.

Results

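The 40 genes described here encode proteins of the kinetochore and of the spindle assembly checkpoint, together with close partners in chromosome segregation. They were chosen by name: 38 of the 40 symbols were found as listed among the 27574 genes of the count table, and SGOL1 and SGOL2 were found under their current symbols, SGO1 and SGO2. Read counts came from 3 RNA sequencing libraries of H82R cells, named replicates 1, 2 and 3. The parental name, H82, belongs to an established line from a human small cell lung cancer, and all 3 libraries are labelled as treated with etoposide, which traps type II topoisomerases on DNA, plus cisplatin, which forms DNA adducts. The labels give 1 group, with no untreated or parental library, no dose, no duration and no meaning for the letter R, and they call the material both a cultured cell line and a treated tumour. The data therefore give levels within these libraries and the spread between them, not an effect of the drugs.

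The kinetochore is the protein assembly on centromeric chromatin that holds chromosomes to spindle microtubules. Its inner layer, the constitutive centromere-associated network, reads nucleosomes that contain the histone variant CENP-A, and its outer layer, built on the MIS12 and NDC80 complexes, binds microtubules. Unattached kinetochores recruit the kinases TTK and BUB1 and convert MAD2 and BUBR1 into an inhibitor of CDC20, which delays anaphase. Many of these genes are transcribed late in the cell cycle through promoters that carry a cell cycle genes homology region (CHR), a short element bound by MuvB-containing complexes, often next to CCAAT boxes bound by NF-Y.

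RefSeq promoter windows (GRCh38.p14, 250 bases before to 50 after the annotated start) were at hand for 32 of the 40 genes. The 8 without a window were BUB3, TTK, UBE2C, BIRC5, CENPH, CENPM, KNTC1 and TPX2. Windows of 7 genes are shown from 150 bases before to 30 after the start, 5′ to 3′ on the strand of the gene, because they hold the motifs in different arrangements in genes of different roles. Capitals mark the CHR core, TTTGAA, the CCAAT box and an E2F core, which reads GCGGGAA. Each was searched on both strands, so that the reverse complement of a motif is capitalised too.
BUB1B: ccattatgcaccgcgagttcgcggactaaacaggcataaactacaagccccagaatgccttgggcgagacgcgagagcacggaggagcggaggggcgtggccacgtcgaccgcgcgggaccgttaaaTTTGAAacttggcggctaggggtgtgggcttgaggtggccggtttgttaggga
CDC20: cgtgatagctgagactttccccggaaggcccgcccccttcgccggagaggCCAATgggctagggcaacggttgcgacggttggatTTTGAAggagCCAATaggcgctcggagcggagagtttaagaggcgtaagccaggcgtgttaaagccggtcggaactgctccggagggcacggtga
CDCA8: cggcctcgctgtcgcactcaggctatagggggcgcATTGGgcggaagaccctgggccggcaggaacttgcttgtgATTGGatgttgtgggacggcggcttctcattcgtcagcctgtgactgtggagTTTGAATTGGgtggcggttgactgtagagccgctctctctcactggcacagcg
INCENP: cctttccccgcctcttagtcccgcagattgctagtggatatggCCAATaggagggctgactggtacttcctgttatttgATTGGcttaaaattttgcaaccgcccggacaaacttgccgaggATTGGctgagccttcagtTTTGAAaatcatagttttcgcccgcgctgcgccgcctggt
CENPA: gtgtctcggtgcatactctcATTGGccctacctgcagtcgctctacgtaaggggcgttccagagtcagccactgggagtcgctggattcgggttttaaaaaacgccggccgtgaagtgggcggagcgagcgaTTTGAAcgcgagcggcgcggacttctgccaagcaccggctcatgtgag
SPC25: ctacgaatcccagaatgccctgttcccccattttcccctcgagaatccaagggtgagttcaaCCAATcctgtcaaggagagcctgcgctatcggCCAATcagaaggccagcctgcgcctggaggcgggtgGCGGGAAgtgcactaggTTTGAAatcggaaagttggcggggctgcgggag
CENPF: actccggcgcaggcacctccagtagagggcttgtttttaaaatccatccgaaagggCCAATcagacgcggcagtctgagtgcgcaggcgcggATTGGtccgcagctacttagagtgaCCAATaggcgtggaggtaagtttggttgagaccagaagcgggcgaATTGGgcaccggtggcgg
These windows lie at chr15:40160919-40161098 for BUB1B, chr1:43358831-43359010 for CDC20, chr1:37692366-37692545 for CDCA8, chr11:62123861-62124040 for INCENP, chr2:26785906-26786085 for CENPA and chr1:214603045-214603224 for CENPF on the plus strand, and at chr2:168890401-168890580 for SPC25 on the minus strand.

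TTTGAA was found in 16 of the 32 windows of 300 bases (50%), against 9.86% of the 10708 detected genes with a window and 11.97% of all 15063 genes of the table with one. CCAAT was found in 21 of the 32 (65.6%), against 36.8% of detected genes. GCGGGAA was found in 6 (18.8%), against 10.1%. With -1 the last base before the start and 1 the first base after it, TTTGAA began at position -23 in BUB1B and in CDCA8, -18 in CENPA, -10 in INCENP, -65 in CDC20 and -3 in SPC25, all on the strand shown. CDC20 and SPC25 each held a further match outside the stretch shown, at -178 (other strand) and -247. In CENPF the match began at 41, also outside the stretch shown, where 4 CCAAT matches can be seen. Among genes whose windows are not shown, TTTGAA began after the start in MAD2L1 (25), CENPN (4), NUF2 (17) and SKA1 (35). It lay on the other strand in CENPC (-90), NDC80 (-3), ZWINT (-31) and SKA3 (-3), and at -224 in ZW10. In CDCA8 the CHR core and the CCAAT box that follows it share 1 base, the only overlap between different motifs in the 32 windows. A match is a run of letters, and whether a factor binds there was not measured.

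Replicates 1, 2 and 3 held 25013265, 42610181 and 23868201 counts. Counts were scaled to CPM (counts per 1e+06, with TMM-adjusted library sizes), and 14612 genes with at least 10 counts in every library were called detected, with a median of 25.2 CPM. Where no count was seen, up to 3 counts remain possible, or 0.121, 0.0702 and 0.125 CPM in the respective library. All 6 neuroendocrine markers fixed for the line were detected and above the median gene, from NCAM1 (88.7 ± 5.26 CPM, SD, n = 3) to UCHL1 (326 ± 7.81 CPM) and NEUROD1 (371 ± 39.7 CPM). Of 11 markers of other cell types, PTPRC, LYZ, COL1A2, DCN, SFTPC, SCGB1A1 and KRT5 were not detected (0 counts in every library for the last 3). The other 4 were below the median gene, with the T-cell gene CD3E highest at 7.62 ± 2.23 CPM and VWF lowest at 0.406 ± 0.0102 CPM. The 11 summed to 7.65, 12.6 and 10.3 CPM. Their part in the results was not tested. Separate cultures are not stated in the labels, so the p-values speak only to how far these 3 samples spread, and that spread may be technical.

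All 40 genes were detected, with 355 or more counts in every library. Most stood above the typical expressed gene: 32 lay above the median detected gene, 6 lay below it, and 2 were not distinguished from it (limma-trend one-sample test, adjusted over all detected genes, threshold 0.05). Across all detected genes 45.9% were called above and 46.1% below. The median of the 40 was 58.7 CPM, against 25.2 CPM for all detected genes. Per kb of exon, which allows genes of different length to be compared, 34 of the 40 lay above the median detected gene and 2 below, against 45.3% and 44.9% of the 13516 detected genes with a known length. In bulk RNA, the share of dividing cells and the RNA level per cell cannot be told apart. The genes together took 0.431%, 0.340% and 0.432% of all counts in replicates 1, 2 and 3.

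**Figure D1:**
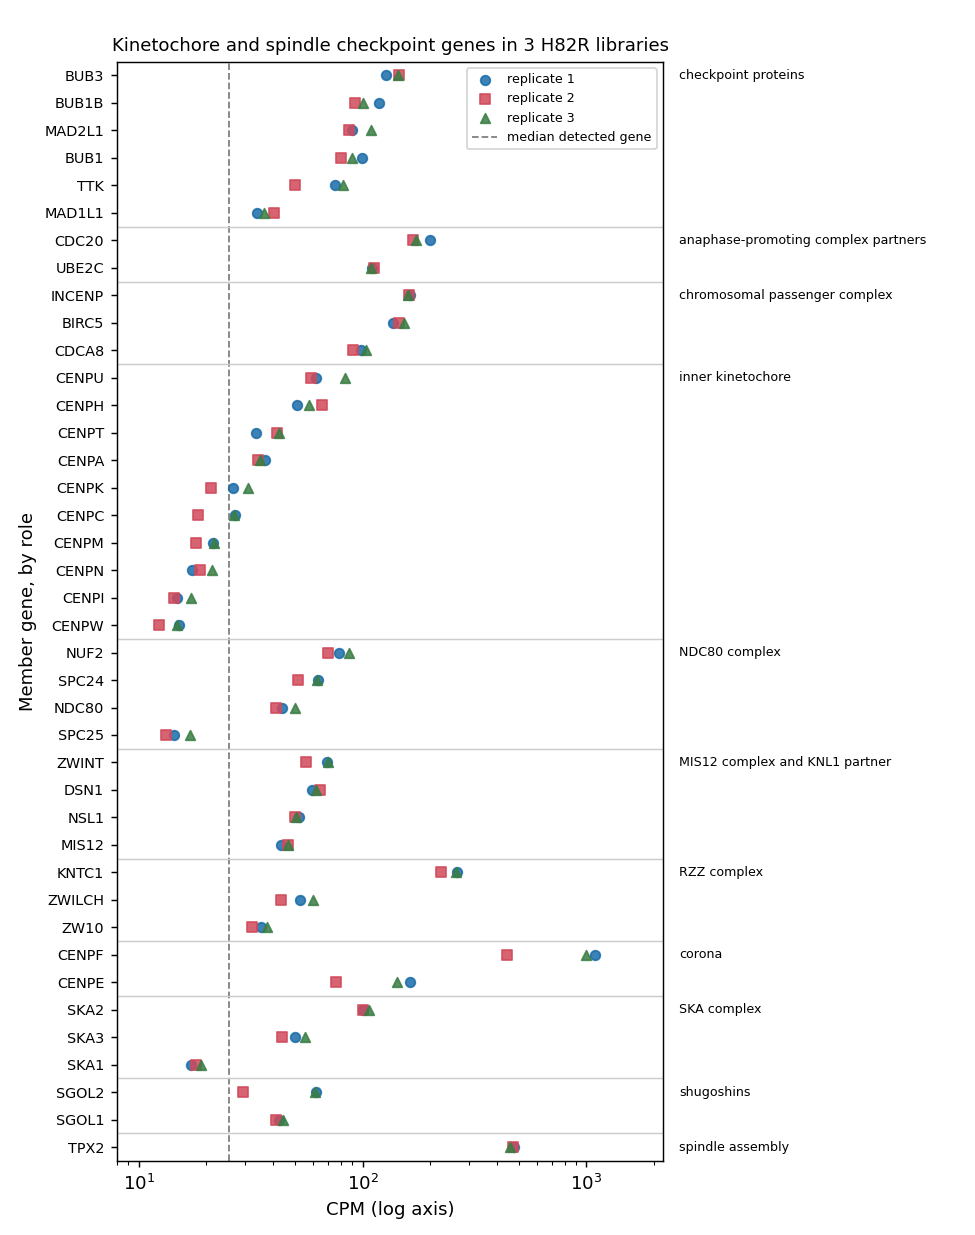
Level of each of the 40 genes in CPM (horizontal log axis) in each of the 3 libraries, with genes ordered by role. The dashed line is the median detected gene at 25.2 CPM; most genes lie to its right, and the squares of replicate 2 lie far to the left of the other points for CENPF, CENPE and SGOL2.

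The spindle checkpoint genes all lay above the median gene in CPM, 6 of 6. BUB1, the kinase that docks at unattached kinetochores and marks centromeric histone H2A, had 99.8, 79.9 and 90.1 CPM in replicates 1, 2 and 3. BUB1B, which encodes BUBR1, the pseudokinase subunit of the inhibitory complex, had 118, 92.3 and 100.2 CPM. Both genes were lowest in replicate 2, and they lay 1.83 ± 0.08 and 2.04 ± 0.08 (SE) above the median gene on the log2 scale (limma-trend, adjusted p = 1.2e-07 and 8.4e-08). A readthrough gene shares 10.2% of the exon bases of BUB1B. Per kb of union exon, BUB1B exceeded its paralog BUB1 by 1.60, 1.56 and 1.499 times. When the longest coding transcript set the length, the ratio of BUB1B to BUB1 averaged 1.11. BUB3, the shared WD40 partner of both, had 127, 145 and 144 CPM and was lowest in replicate 1. MAD2L1, which encodes the MAD2 protein that captures CDC20, had 89.3, 86.9 and 109 CPM. MAD1L1, whose product anchors MAD2 at the kinetochore, had 33.6, 40.2 and 36.2 CPM and was the lowest checkpoint gene per kb (5.07 ± 0.457). Per kb, MAD1L1 was not distinguished from the median gene (log2 distance -0.13, limma-trend, adjusted p = 0.221). Per kb of union exon, MAD2L1 exceeded MAD1L1 by 3.34, 2.72 and 3.78 times, but by a mean of 1.43 when the longest coding transcript set the length. TTK, the MPS1 kinase that starts the checkpoint signal, had 75, 49.9 and 81.5 CPM, with replicate 2 well below the other libraries.

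Both partners of the anaphase-promoting complex stood high. CDC20, the complex's mitotic activator and the target of the checkpoint, had 200.9, 168 and 173 CPM. On the log2 scale CDC20 lay 2.84 ± 0.07 above the median gene (limma-trend, adjusted p = 7.4e-09). UBE2C, the ubiquitin-conjugating enzyme that starts chains on its substrates, had 110, 113 and 109 CPM, nearly level across the libraries. Per kb of exon the pair lay close together, at 88.6 ± 8.73 for CDC20 and 86.1 ± 1.42 for UBE2C, and their ratio crossed 1 between libraries (0.869, 1.07 and 0.998 for UBE2C over CDC20). CDC20 exceeded its inhibitor MAD2L1 by 6.35, 5.44 and 4.499 times per kb. The annotation names 4 pseudogenes of UBE2C and 1 of CDC20, so counts of both depend on how reads shared with copies were assigned. The same limit holds for BUB1, BUB3, SKA2, CENPC, CENPI, CENPU and SGOL1, which brings the genes with a named pseudogene to 9 of the 40.

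The chromosomal passenger complex corrects faulty attachments and is made of the kinase AURKB with INCENP, survivin and borealin. Its 3 scaffold genes were all above the median gene. INCENP had 164, 161 and 160 CPM, BIRC5 (survivin) 137, 145 and 153 CPM, and CDCA8 (borealin) 98.4, 90.4 and 104 CPM. Replicates differed little for INCENP, whose counts did not depart from homogeneity across libraries (adjusted p = 0.637). Per kb, the 3 subunits lay at 36.1 ± 0.416, 37.97 ± 2.07 and 39.5 ± 2.69, so that the highest exceeded the lowest by 1.11 ± 0.0603 times (SD, n = 3). On the longest coding transcript the span was 1.37. With AURKB (57.3 ± 4.79 per kb) added after seeing the data, the whole complex spanned 1.59 ± 0.125 times, and 2.64 on the longest coding transcript.

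Of the 10 inner kinetochore genes, the test placed 4 above and 4 below the median gene and left 2 undecided. These shares are near those of all detected genes (45.9% above and 46.1% below). CENPU (62.2, 58.7 and 83.5 CPM), CENPH (51.0, 66.1 and 57.8 CPM), CENPT (33.5, 41.3 and 42.4 CPM) and CENPA (36.7, 34.2 and 34.97 CPM) were above. CENPM (21.4, 18.1 and 21.7 CPM), CENPN (17.4, 18.8 and 21.2 CPM), CENPI (14.9, 14.3 and 17.2 CPM) and CENPW (15.2, 12.3 and 14.8 CPM) were below. CENPC (26.9, 18.3 and 26.7 CPM) and CENPK (26.4, 21.1 and 30.8 CPM) were not distinguished from the median gene (adjusted p = 0.526 and 0.749). CENPM missed the threshold without any 1 of the 3 libraries (adjusted p from 0.0895 to 0.120), and CENPN without replicate 1 (0.121). CENPW and CENPM have short exon unions (0.795 and 1.778 kb), and per kb both were called above the median.

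CENPA encodes the histone H3 variant that marks the centromere, and CENPC the protein that reads it and ties it to the MIS12 complex. Per kb, CENPA (17.8 ± 0.632) exceeded CENPC (2.78 ± 0.567) by 5.92, 8.11 and 5.69 times, and CENPC was the lowest of all 40 genes per kb. Along with CENPI (3.57 ± 0.348 per kb) it was the only gene called below the median detected gene per kb (log2 distance -1.02 and -0.64, adjusted p = 0.00014 and 0.00047). The 4 subunits of CENP-HIKM, the central module of the inner layer, spanned 6.61, 8.88 and 6.49 times between CENPH at the top and CENPI at the bottom, the widest span of the 8 complexes. CENPH differed from its binding partner CENPK in that it was highest in replicate 2, where CENPK was lowest, and their ratio per kb was 3.72, 6.02 and 3.60. On the longest coding transcript that ratio averaged 2.89, against 4.45. CENPW and CENPT, histone-fold partners, had a ratio per kb of 3.16, 2.08 and 2.43, which fell to a mean of 1.15 on the longest coding transcript, below 1 in replicate 2 (0.933). In the annotation 22.8% of the exon bases of CENPN, 19.6% of those of CENPT and 11.7% of those of CENPU lie opposite genes on the other strand. The share was at least 5% in 6 of the 40 genes, the others being SGOL1 (17.7%), ZWILCH (10.9%) and MIS12 (9.53%). How the counting treated strand is not given in the sources used here.

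The NDC80 complex is the main microtubule coupler, a rod with NDC80 and NUF2 at 1 end and SPC24 and SPC25 at the other. NUF2 (78.3, 69.9 and 86.8 CPM), SPC24 (63.5, 51.5 and 62.3 CPM) and NDC80 (43.6, 41.1 and 49.9 CPM) were above the median gene. SPC25 (14.4, 13.3 and 17.0 CPM) was below it by 0.76 ± 0.11 on the log2 scale (adjusted p = 0.00026), though called above it per kb (0.54 on that log2 scale). All 4 were lowest in replicate 2. The order of the subunits per kb was NUF2, SPC24, NDC80 and SPC25 in every library, with NUF2 1.92, 1.82 and 1.86 times NDC80 and SPC24 2.86, 2.51 and 2.37 times SPC25. The whole complex spanned 2.89 ± 0.0953 times per kb.

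The MIS12 complex joins both layers, and 3 of its 4 genes are among the 40. DSN1 had 59.7, 64.8 and 62.1 CPM, MIS12 43.4, 46.5 and 46.4 CPM, and NSL1 51.9, 49.7 and 50.7 CPM. None of the 3 departed from homogeneity (adjusted p = 0.0524, 0.197 and 0.542). PMF1, the remaining subunit, was below the median gene at 20.8 ± 0.509 CPM (adjusted p = 0.0223), and its counts did not depart from homogeneity either (0.741). The 3 genes spanned 1.83 ± 0.113 times per kb, and all 4 spanned 2.76 ± 0.118 times with PMF1 lowest, a comparison added after seeing the data. On the longest coding transcript PMF1 was not the lowest, and the span was 1.51 with or without it. A readthrough gene shares 23.3% of the exon bases of PMF1. ZWINT, a partner of KNL1 that helps to hold the RZZ complex, had 69.7, 56.1 and 70.2 CPM and was lowest in replicate 2. The RZZ complex brings dynein and MAD1 to unattached kinetochores. KNTC1, its largest subunit (ROD), had 264, 224 and 262 CPM, ZWILCH 52.8, 43.4 and 59.8 CPM, and ZW10 35.3, 32.1 and 37.6 CPM, all lowest in replicate 2 and all above the median gene. Per kb KNTC1 exceeded the lower of its partners, ZWILCH, by 2.07 ± 0.176 times. On the longest coding transcript ZW10 was the lower, and KNTC1 exceeded it by 3.06 ± 0.127 times.

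The SKA complex tracks microtubule ends with NDC80. SKA2 had 100.7, 100.6 and 107 CPM, SKA3 50.1, 43.7 and 55.5 CPM, and SKA1 17.1, 18.0 and 19.0 CPM. SKA1 was below the median gene by 0.48 ± 0.10 on the log2 scale (adjusted p = 0.0018) and not distinguished from it per kb. SKA2 exceeded SKA1 per kb by 5.51, 5.24 and 5.27 times. TPX2, which activates Aurora A and nucleates spindle microtubules, was the highest of the 40 per kb (129.7 ± 2.603) and among the steadiest, with 476, 469 and 457 CPM. On the log2 scale TPX2 lay 4.22 ± 0.07 above the median gene (limma-trend, adjusted p = 1.4e-09).

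**Figure D2:**
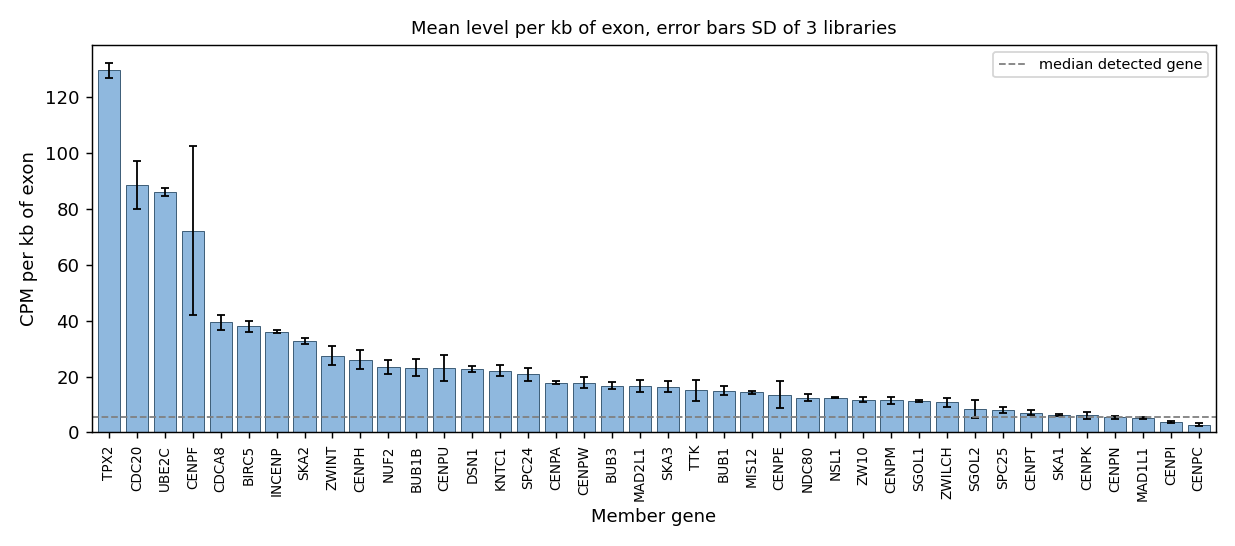
Mean CPM per kb of exon for each of the 40 genes (bars from 0, error bars SD of 3 libraries), in descending order, with the median detected gene (5.59 CPM per kb) as a dashed line. TPX2, CDC20, UBE2C and CENPF form the high end and CENPI and CENPC the low end, and the error bar of CENPF is the widest.

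**Figure D3:**
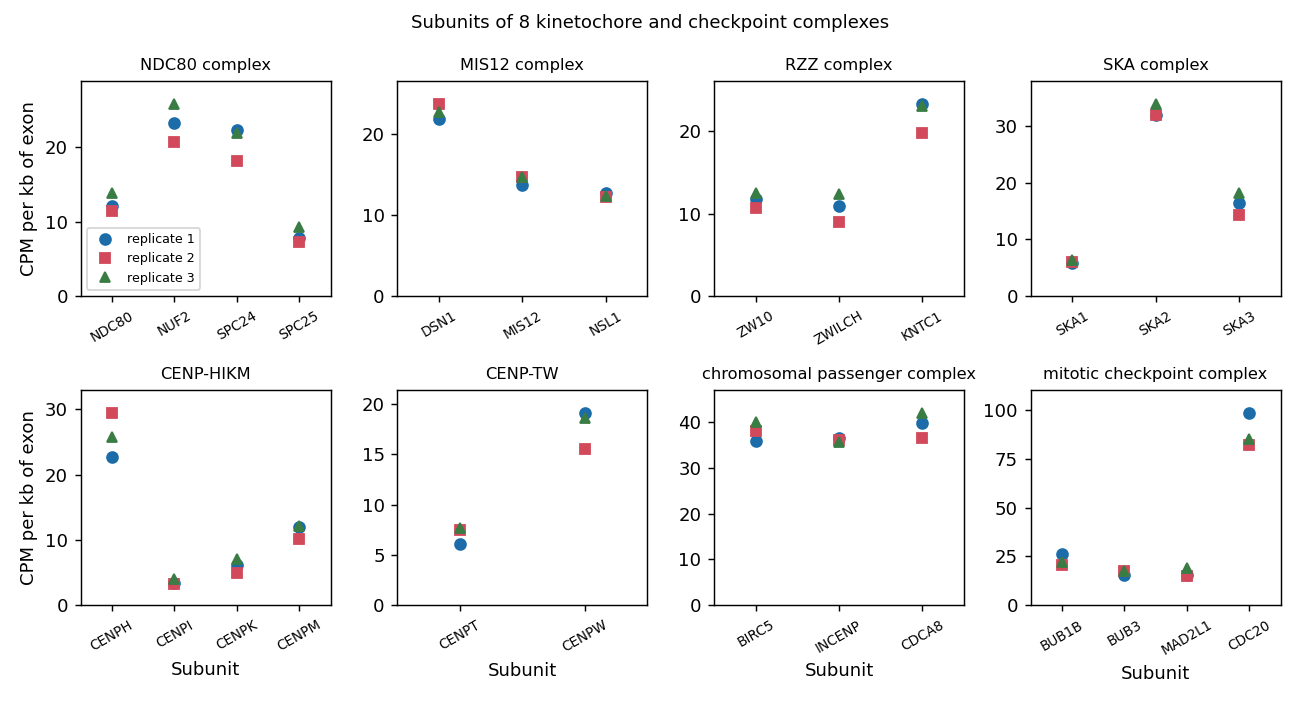
CPM per kb of exon (vertical axis, from 0) in each library, for the subunits of 8 complexes that are among the 40 genes. The 3 plotted subunits of the chromosomal passenger complex lie between 35.7 and 41.9, whereas CENPH and CENPI, SKA2 and SKA1, and CDC20 and its checkpoint partners lie far apart in every library.

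Over the 8 complexes, taken by their subunits among the 40 genes, 5 had a highest subunit more than 2 times the lowest in every library (6 with PMF1 and AURKB added). The longest coding transcript also gave 5, with the RZZ complex (3.21, 2.99 and 2.99) in and CENPW with CENPT out. PMF1 brought in the MIS12 complex. On the longest coding transcript, AURKB brought in the passenger complex instead (2.48, 3.06 and 2.39). Besides those above, the mitotic checkpoint complex (BUB1B, BUB3, MAD2L1 and CDC20) spanned 5.59 ± 0.766 times, set by CDC20. The complexes differ in their number of subunits, and spans of other gene sets of the same size were not computed. These spans and their count are therefore descriptions, with no share of other detected genes beside them. Of 12 pairs compared per kb, 10 kept the same order in all 3 libraries and BIRC5 with INCENP and UBE2C with CDC20 did not. On the longest coding transcript both of these kept their order, while CENPW to CENPT turned in replicate 2 (1.42, 0.933 and 1.09). With 3 libraries the exact sign-flip test cannot give a p below 0.25, so these orders are descriptions. A pair whose ratio lies far from 1 keeps its order through small differences between libraries. How often pairs of other detected genes keep their order was not computed.

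Of the 40 genes, CENPF, CENPE and SGOL2 differed most between libraries. CENPF, a very large coiled-coil protein of the outer corona, had 27147, 18887 and 23980 counts, which is 1093, 442 and 1001 CPM. CENPE, the kinesin that carries chromosomes to the spindle equator, had 163, 76.2 and 143 CPM. SGOL2, a shugoshin that protects centromeric cohesion, had 61.7, 29.2 and 61.4 CPM. In all 3 genes replicates 1 and 3 lay close together and replicate 2 lay 2.37, 2.0005 and 2.11 times lower (CENPF, CENPE and SGOL2), or -1.24, -1.0003 and -1.08 on the log2 scale. A deviation of at least 1 log2 unit downward in replicate 2 was seen in 3 of the 40 genes and in 1.16% of all detected genes. TTK (-0.65) and CENPC (-0.55) came next. SGOL1, the paralog of SGOL2 that guards cohesion in mitosis, was steady at 42.4, 41.1 and 44.3 CPM, so the ratio of SGOL2 to SGOL1 per kb was 0.926, 0.451 and 0.881. An antisense gene covers 17.7% of the exon bases of SGOL1.

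All 3 genes stayed above the median gene in the limma-trend test in spite of this spread (log2 distance 4.96 ± 0.22, 2.27 ± 0.18 and 0.93 ± 0.19, adjusted p = 1.3e-07, 4.0e-06 and 0.0018). Without replicate 2, the mean of CENPF was 1047 CPM, against 845 ± 352 with it. CENPF alone made up 25.2%, 13.0% and 23.3% of the counts of the 40 genes, and the other 39 summed to 3245, 2945 and 3302 CPM. In the GENCODE 29 annotation (GRCh38) CENPF lies on chromosome 1 from 214603195 to 214664588 on the plus strand, CENPE on chromosome 4 from 103105806 to 103198409 on the minus strand, and SGOL2 on chromosome 2 from 200510008 to 200583782 on the plus strand.

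Over the 40 genes, 28 had their lowest CPM in replicate 2, against 36.4% of detected genes. A chi-square test of homogeneity called 31 of the 40 more variable between libraries than counting error allows, against 68.7% of detected genes. Between replicates 1 and 3 alone it called 20, against 39.0% of the genes detected in those libraries. The 9 that were not called over all 3 libraries were UBE2C, INCENP, CENPA, DSN1, MIS12, NSL1, SKA1, SKA2 and SGOL1. A chi-square test finds smaller differences at higher counts, and the 40 genes had a higher median CPM than all detected genes. The part of count depth in these shares was not tested.

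GC content moved with the deviation of replicate 2. Among detected genes with a GC content of up to 35% in their longest coding transcript, the median deviation was -0.36 on the log2 scale (179 genes), between 40% and 42% it was -0.10 (1193 genes), and above 60% it was 0.11 (2016 genes). The 40 genes have a median GC content of 41.6%, against 48.5% for all detected genes. Across the 40 genes the deviation and GC content had a Spearman rho of 0.54, and across 13516 detected genes 0.34. With exon length rho was -0.20 across the 40 genes and -0.04 across detected genes. The Pearson r with log2 exon length was -0.38 and -0.06. Genes share libraries and are not independent replicates, and no p is given. GC content was 35.3% in CENPE, 34.7% in SGOL2 and 40.8% in CENPF. Among detected genes within 1 percentage point of the same GC content, a lower deviation was found in 6.33% of 316 for CENPE, 4.74% of 232 for SGOL2 and 0.820% of 1219 for CENPF. With the GC trend of each library removed, the deviations of CENPF, SGOL2, CENPE and TTK were -1.13, -0.72, -0.67 and -0.53, while that of CENPK went from -0.44 to -0.00. The parts of GC content and exon length in these differences were not tested.

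**Figure D4:**
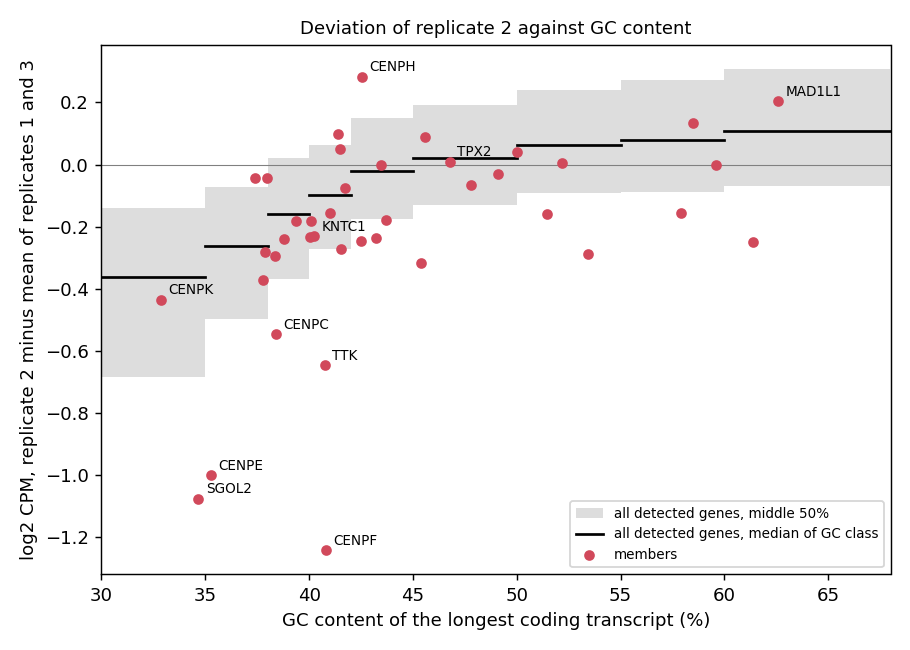
Deviation of replicate 2 (log2 CPM minus the mean of replicates 1 and 3) against the GC content of the longest coding transcript in percent, from 30% to 68%. Points are the 40 genes, black lines the median and grey bands the middle 50% of all detected genes in 9 GC classes; CENPF, SGOL2, CENPE, TTK and CENPC are the lowest points and lie below the bands, as do some GC-richer genes.

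Other genes of the same machinery, 49 in 7 lists, gave 31 above and 9 below the median gene, 5 not distinguished and 4 not detected, against 45.9% above and 46.1% below among all detected genes. Levels here are in CPM and not per length. Of the other kinetochore subunits 4 of 10 were above and 3 below, near the share of all detected genes above: CENPB, which binds a centromeric satellite box, was at 116 ± 5.17 CPM, the checkpoint scaffold KNL1 (listed as CASC5) at 85.8 ± 32.0 CPM and ITGB3BP (CENP-R) at 49.9 ± 5.05 CPM. CENPS was lowest (0.620 ± 0.0718 CPM), but 64.7% of its exon bases are shared with a readthrough gene. KNL1 had 97.5, 49.7 and 110 CPM and thus lay -1.06 lower in replicate 2, the same pattern as CENPF and SGOL2, with 38.1% GC. Among the genes that load CENP-A, HJURP (56.2 ± 5.19 CPM) and MIS18A (47.7 ± 1.95 CPM) were above the median gene, and OIP5 (25.002 ± 2.11 CPM) was not distinguished from it.

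Of the 5 mitotic kinases 4 were above: PLK1 at 236 ± 16.7 CPM, AURKB at 128 ± 10.7 CPM and AURKA at 127 ± 7.85 CPM led, and HASPIN (listed as GSG2), the histone H3 kinase that recruits the passenger complex, was below at 20.5 ± 2.25 CPM. Of 7 checkpoint-silencing and corona partners 5 were above and 1 below, with the microtubule depolymerase KIF2C (173 ± 12.04 CPM), the MAD2-remodelling ATPase TRIP13 (69.0 ± 7.54 CPM) and SPDL1 (53.0 ± 12.8 CPM) highest and NDE1 (11.6 ± 1.17 CPM) lowest. Of 17 genes of the anaphase-promoting complex and its regulators 13 were above and 4 below. The chain-elongating enzyme UBE2S (259 ± 17.9 CPM), ANAPC5 (215 ± 9.45 CPM) and CDC27 (194 ± 25.7 CPM) were highest, and ANAPC15, a subunit needed to release checkpoint inhibition, was lowest at 2.17 ± 0.180 CPM with 56, 84 and 55 counts. ESPL1 (separase, 122 ± 8.17 CPM) and PTTG1 (securin, 78.4 ± 6.50 CPM) were both above. The germline relatives MEIKIN and PTTG2 had no counts, which allows up to 0.125 CPM, CDC20B had 3, 3 and 0, and AURKC had 8, 11 and 3.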

How the data were processed

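Total RNA of 3 H82R libraries was sequenced, per the labels' protocols. The authors deposited raw read counts per gene symbol, 1 column per library, which were not normalized. Per the submitters' processing notes, STAR 2.6.1b and the build hg38 were used, in a role the notes leave unsaid. Not given in the sources used here are the counting program, its annotation and its strand setting. Names turned into dates by a spreadsheet (13, at most 0.0736% of counts) were left out.

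Library sizes were totals times TMM factors (edgeR 4.0.16), and log2 CPM used a prior count of 2. Genes with at least 10 counts in every library were tested. With 1 group, there is no contrast for a quasi-likelihood or DESeq2 test; DESeq2 1.42.0 gave size factors as an alternative scaling. Each gene was compared with the median detected gene of its library by a two-sided one-sample limma-trend test (limma 3.58.1, R 4.3.3), and the counts of libraries by a chi-square test of homogeneity, both adjusted by Benjamini-Hochberg across the 14612 detected genes. On simulated data the level test called 5% of 200 genes set at the median gene and 99.5% of 200 set 0.5 log2 units away. The homogeneity test called 80% of 100 genes raised 1.5-fold in 1 library and 92% of 100 raised 2-fold. It called 0.0278% of 14412 unchanged genes. Its simulated counts held counting error only, unlike the real libraries, so spread beyond that was not covered. Exon length (union of exons), GC content, positions and overlaps came from GENCODE 29 on GRCh38, the assembly hg38 names, and covered 92.5% of detected genes and all 40 members. A direct match was found for 19584 names of the table, and an older symbol matched 474 more. Promoter windows came from RefSeq.

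All 40 genes are named, and of each other list the 3 highest, the lowest and the undetected, except 1 gene that is not reported here. The genes, lists, complexes, pairs and motifs were chosen with earlier results of these data known. Alternatives left out each library or changed normalization, filter, prior count, method, reference genes, length or threshold. A protein motif that was to be searched was not analysed here. The 3-count limits cover counting error only, since reads lacking molecular identifiers need not be separate molecules.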

Additional observations from a re-analysis of the deposited data

How the results depend on the processing

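No paired analysis was possible because the labels form 1 group. The count of the 40 genes above the median detected gene was 32 without any 1 library and from 30 to 40 over all 11 alternatives. The count below it was 4 to 5 without 1 library, 0 with every gene of at least 1 count in any library included (limma-trend; all 40 were then called above, so 0 also at an unadjusted p under 0.05, because that filter lowers the median gene; no other tool was run with it) and 2 per kb of exon. The count of other pathway genes below it was 4 under the same filter. Genes more variable than counting error numbered 20 to 28 without 1 library (20 without replicate 2), and 28 and 32 with the GC or the exon length trend removed, alternatives chosen after seeing the data.

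Near the median gene, directions turned. Under that filter the log2 distance became 2.21 for CENPC, 1.59 for CENPI, 1.99 for CENPM, 1.90 for CENPN, 1.46 for CENPW, 1.82 for SKA1 and 1.54 for SPC25. Per kb it became 1.04 for CENPM, 1.68 for CENPW, 0.14 for SKA1, 0.54 for SPC25 and -0.13 for MAD1L1. Without 1 library it ranged from -0.10 to 0.10 for CENPC and from -0.00029 to 0.19 for CENPK, which was at -0.27 with a filter of 1 CPM and -0.19 among protein-coding genes. CENPC was called below the median gene under both of these settings (-0.39, adjusted p = 0.0166, and -0.32, adjusted p = 0.0392, limma-trend). With the filter of 1 CPM the calls of CENPA (0.18, adjusted p = 0.0580) and ZW10 (0.17, adjusted p = 0.0907) were lost. The ratio of UBE2C to CDC20 ranged from 0.934 to 1.03 without 1 library and was 1.20 on the longest coding transcript.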
